A study of Caenorhabditis elegans with 7 samples.

Results

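Among 961 rows of the authors' deposited table that have 1 annotated gene, 17 belong to nuclear hormone receptors whose symbol starts with nhr-, and 4 of these, nhr-109, nhr-220, nhr-210 and nhr-217, are described here. They were chosen by the size of their signal difference between an ahr-mutant strain and the wild type on these same arrays, so that difference is a description and carries no test. Whole Caenorhabditis elegans larvae of the first larval stage (L1) were measured, as 4 samples of an ahr-mutant strain, in which the labels call that gene nonfunctional, and 3 samples of the wild type, which the series title calls N2. The allele is not stated, no age in hours is given, and both strains were hatched from harvested eggs on plates with E. coli and liquid. Each sample was labelled with Cy3 and read on 1 array of 23232 spots in 1 colour. The mutant titles call the samples biological, and nothing else says that cultures were separate, so p-values speak only for the spread among the 7 samples, which may be technical. Replicates are numbered in the order of deposit, and the numbers pair nothing.

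Nuclear hormone receptors are transcription factors with a zinc-finger DNA-binding domain and, usually, a ligand-binding domain that can hold small lipophilic molecules. The worm family is far larger than that of insects or mammals, and most of it descends from a gene related to the vertebrate liver receptor HNF4. Members that have been studied in detail act in lipid metabolism, in the response to foreign chemicals and in the timing of development. The worm ahr gene encodes the worm relative of the aryl hydrocarbon receptor of vertebrates. The vertebrate receptor also binds ligands, but both proteins belong to another family, the bHLH-PAS proteins. No function is stated here for the 4 genes.

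By the RefSeq annotation of WBcel235, nhr-109 lies on chromosome II, nhr-217 on chromosome I, and nhr-210 and nhr-220 on chromosome V. The annotation classes nhr-109, nhr-210 and nhr-217 as protein coding, with 3, 1 and 1 transcripts. It classes nhr-220 as a pseudogene with no RefSeq transcript, 1 of 14 pseudogenes among 283 nhr- genes. nhr-220 is also the only pseudogene among the 17 nhr- rows of the table. The genome build used for the array design is not stated, so no coordinates are printed. Probe sequences were not used here, so whether a spot also binds RNA of related receptors was not tested.

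A spot was named only where its array signals matched a table row by value, since the table and the array files number their rows differently. All 4 genes matched 1 spot each, as did 12 of the other 13 nhr- rows. Positive signals numbered 21942 to 22593 on each array, with medians of 52277 to 90919 intensity units. The file of ahr-mutant replicate 1 lists its rows in another order, and its spots were put back by aligning signals to the other arrays. For nhr-109 and nhr-220 its value was also found exactly from the table, while for nhr-210 and nhr-217 it rests on the alignment alone. Over all stretches that met the limits of the alignment, 353 of 358 positions known from table values were placed correctly, and the 1 stretch that held the other 5 was left out. Signals are given below as log2 intensity after quantile normalization, in which 1 unit is a doubling, and differences are ahr-mutant minus wild type with the standard error (SE) of the limma fit over 22499 spots.

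nhr-109 had the largest difference of the 16 measured nhr- genes and was higher in the mutants. Its log2 signal was 17.60, 19.21, 19.58 and 19.70 in ahr-mutant replicates 1 to 4, against 16.38, 17.26 and 16.59 in wild-type replicates 1 to 3. Every mutant array lay above every wild-type array, and ahr-mutant replicate 1 stood closest to the wild type, 0.34 above its highest array. The mean was 19.02 ± 0.97 in the mutants (SD, n = 4) and 16.74 ± 0.46 in the wild type (SD, n = 3). The difference was 2.28 ± 0.53 (SE), or 4.86-fold. It exceeded in size that of 99.6% of all tested spots, a rank that follows from choosing the gene by this difference. Without ahr-mutant replicate 1 the difference was 2.74.

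On the deposited scale the nhr-109 spot read 186184, 689568, 1045321 and 771302 intensity units in the mutants, against 72240, 112794 and 89848 in the wild type. The highest mutant signal was thus that of replicate 3 before normalization and that of replicate 4 after it. In the authors' deposited table, whose values are signals relative to a constant per row, the nhr-109 row held 1.00, 2.60, 3.67 and 3.10 for the mutants, against 0.402, 0.728 and 0.451 for the wild type. The order of the strains was the same in all 3 forms of the data.

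nhr-220, the annotated pseudogene, was also higher in the mutants, with a narrow gap between the strains. Its log2 signal was 18.04, 19.004, 17.32 and 18.84 in ahr-mutant replicates 1 to 4, against 17.25, 16.72 and 17.00 in the wild type. The strains did not overlap, but replicate 3 lay only 0.06 above the highest wild-type array. Means were 18.30 ± 0.78 in the mutants (SD, n = 4) and 16.99 ± 0.27 in the wild type (SD, n = 3), a difference of 1.31 ± 0.45 (SE), or 2.48-fold. In the authors' deposited table replicate 3 had a ratio of 0.981, below the 1.00 of wild-type replicate 1, so there the strains overlapped. The other mutant ratios were 1.69, 2.74 and 2.08, against 0.615 and 0.709 in the remaining wild-type arrays.

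nhr-210 was lower in the mutants. Its log2 signal was 18.23, 17.77, 16.42 and 18.51 in ahr-mutant replicates 1 to 4, against 18.75, 19.60 and 19.42 in the wild type. All mutant arrays lay below all wild-type arrays, replicate 3 lowest by more than 1 unit and replicate 4 only 0.23 below the lowest wild-type array. Means were 17.73 ± 0.93 in the mutants (SD, n = 4) and 19.26 ± 0.45 in the wild type (SD, n = 3). The difference of -1.52 ± 0.52 (SE) corresponds to 2.87-fold lower signal. Without replicate 3 it was -1.10. In deposited intensity units the spot read 296214, 274042, 116941 and 341171 in the mutants, against 513048, 612451 and 568354 in the wild type.

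nhr-217 was lower in 3 of the mutant arrays and close to the wild type in the remaining one. Its log2 signal was 16.44, 16.88, 18.31 and 17.25 in ahr-mutant replicates 1 to 4, against 18.36, 19.21 and 18.40 in the wild type. Replicate 3 lay 0.04 below the lowest wild-type array, a gap too small to keep the strains apart in the authors' deposited table, where its ratio of 1.16 exceeded the 1.00 of wild-type replicate 3. Means were 17.22 ± 0.80 in the mutants (SD, n = 4) and 18.66 ± 0.48 in the wild type (SD, n = 3). The difference was -1.44 ± 0.48 (SE), or 2.71-fold lower, and -1.80 without replicate 3. With median scaling in place of quantile normalization the strains overlapped for nhr-217 (difference -1.53).

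**Figure D1:**
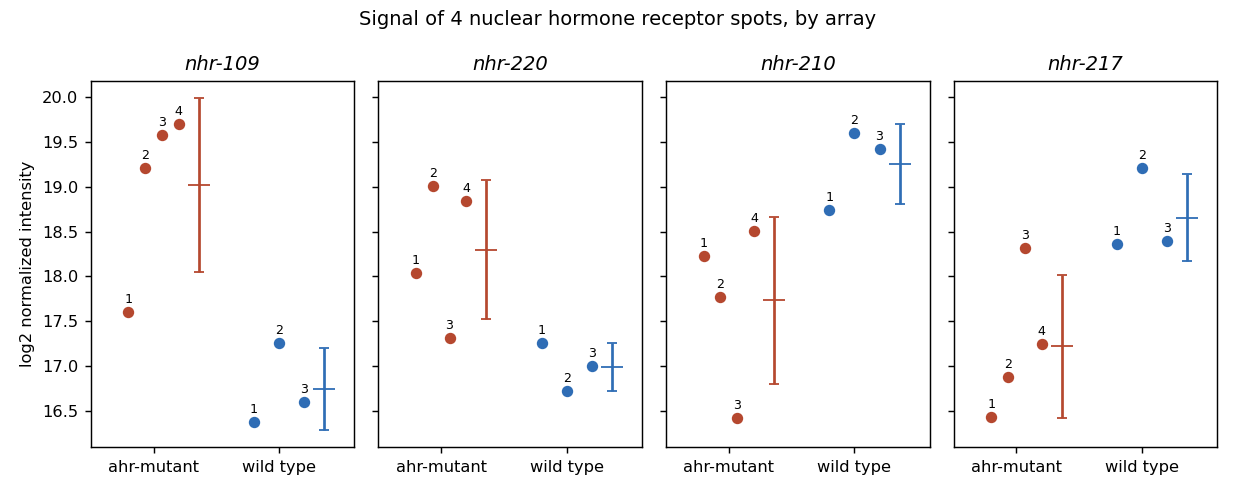
Log2 quantile-normalized intensity (vertical axis) of nhr-109, nhr-220, nhr-210 and nhr-217 on each array, with the 4 ahr-mutant arrays left of the 3 wild-type arrays in each panel; numbers are replicates, and the dash and bar give mean and SD. The strains do not overlap in any panel, but the gap is 0.06 for nhr-220 and 0.04 for nhr-217.

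The mutant arrays were less uniform than the wild-type arrays for all 4 genes. The same held for most, but not all, of the other 12 measured nhr- genes. SDs of the 4 genes were 0.78 to 0.97 in the mutants and 0.27 to 0.48 in the wild type. The median SD over all spots measured on every array was 0.51 in the mutants and 0.49 in the wild type. The mutant array nearest the wild type was not the same one each time. It was replicate 1 for nhr-109, replicate 3 for nhr-220 and nhr-217, and replicate 4 for nhr-210. Deposited signals of the 4 genes ran between 72240 and 1045321 intensity units on all arrays, above the 1st percentile of positive signals, which was at most 21255. The spots therefore did not lie at the dim end, where folds may be understated.

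Strain differences on these slides depended on where a spot lay. Counting from the order of the rows, the array has 12 slide rows of 4 blocks. For spots outside the table the median difference was -0.46 in slide row 1, -0.22 in slide row 4, 0.24 in slide row 9 and 0.50 in slide row 12. nhr-210 lies in slide row 1, nhr-217 and nhr-220 in slide row 4 and nhr-109 in slide row 9. The differences of nhr-109, nhr-210 and nhr-217 thus had the sign of their slide row, and that of nhr-220 had the opposite sign.

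The immediate surroundings of each spot were compared in a window of 15 by 15 spots, leaving out table spots. Around nhr-109 the 210 neighbours had a median difference of 0.25 and a highest value of 2.17, below that of nhr-109. The 114 neighbours of nhr-220 had a median of -0.06 and a highest value of 0.99, also below the 1.31 of nhr-220. For nhr-217 the median of 200 neighbours was -0.07 and the lowest value -1.78, and 2.50% of them had a lower difference than the gene. The 190 neighbours of nhr-210 had a median of -0.57 and a lowest value of -2.86, and 2.63% of them lay below it. The neighbours' median was thus farther from 0 around nhr-210 than around nhr-217 and nhr-220. The described genes were chosen by the size of their strain difference, while their neighbours were not. That these genes lay beyond all or most of their neighbours therefore follows from the choice and is no test of them.

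**Figure D2:**
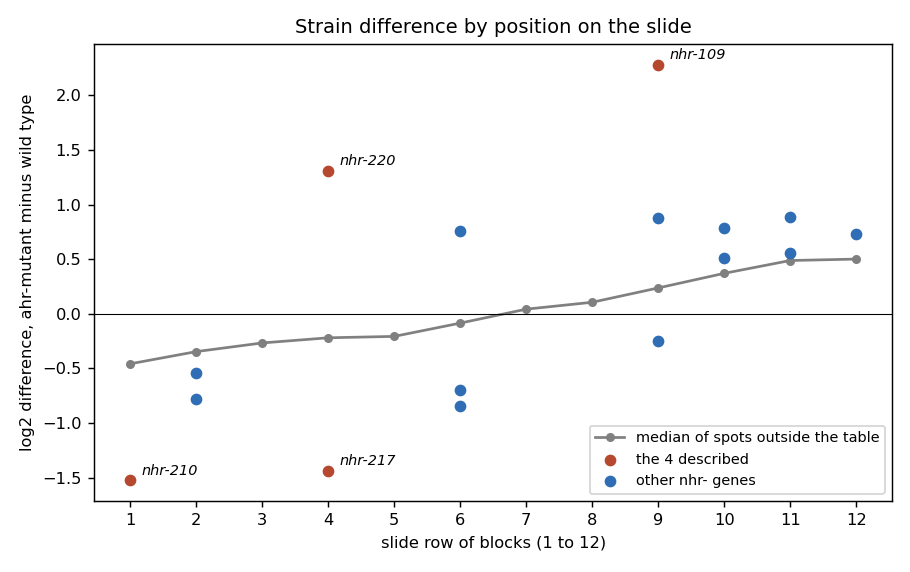
Log2 difference of ahr-mutant minus wild type (vertical axis) of each measured nhr- gene against its slide row (horizontal axis, 1 to 12), with the median of spots outside the table as a grey line. The line runs from -0.46 in slide row 1 to 0.50 in slide row 12, and nhr-220 is the described gene that lies on the other side of 0 from it.

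Subtracting each array's local trend, taken as the median deviation of window neighbours from their spot means, gave a second set of values. With this local position adjustment nhr-109 was 18.10, 19.17, 19.09 and 19.47 in ahr-mutant replicates 1 to 4, against 16.57, 17.38 and 16.72 in the wild type. Replicate 1 came closer to the other mutants, the gap between the strains widened to 0.72, and the difference was 2.07 ± 0.38 (SE), or 4.18-fold. nhr-220 was 18.33, 18.81, 17.48 and 18.89 in the mutants, against 17.27, 16.72 and 17.00 in the wild type. Its gap widened to 0.21 and its difference was 1.38 ± 0.38 (SE), or 2.61-fold. With block medians subtracted instead, the nhr-220 difference was 2.04, 4.11-fold, but the strains overlapped.

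The genes with lower means no longer kept the strains apart. nhr-210 was 18.33, 17.85, 17.33 and 18.46 in ahr-mutant replicates 1 to 4 after the local adjustment, against 18.40, 19.01 and 19.47 in the wild type. Replicate 4 then lay above wild-type replicate 1, and the difference was -0.97 ± 0.37 (SE), or 1.95-fold lower. The SD of nhr-210 was then 0.51 in the mutants and 0.54 in the wild type, so its mutant arrays were no longer the less uniform ones. With block medians subtracted the difference was -0.70, 1.63-fold lower. nhr-217 was 16.70, 17.10, 18.25 and 17.11 in the mutants, against 18.13, 19.20 and 18.51 in the wild type. Replicate 3 lay above wild-type replicate 1, and the difference was -1.32 ± 0.41 (SE), or 2.50-fold lower. In 11 of 12 pairs of a mutant and a wild-type array the mutant signal was still the lower one for each of these 2 genes.

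**Figure D3:**
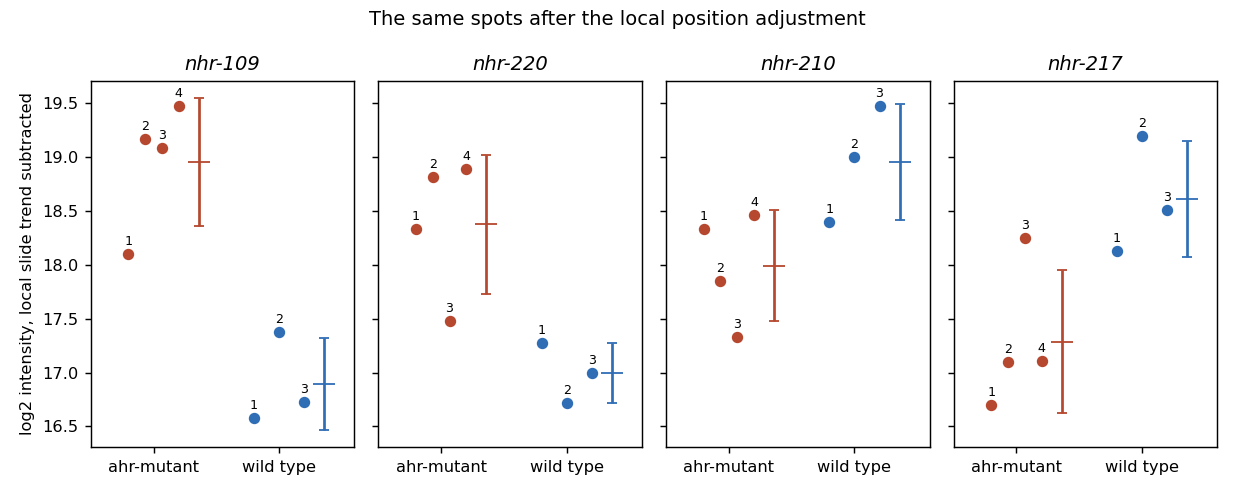
The same 4 genes after the local position adjustment (vertical axis, log2 intensity with the local slide trend subtracted), with the ahr-mutant arrays left of the wild-type arrays; dash and bar give mean and SD. The gap between the strains is 0.72 for nhr-109 and 0.21 for nhr-220, and the strains overlap for nhr-210 and nhr-217.

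The remaining 12 measured nhr- genes had smaller differences, 1.19-fold to 1.84-fold in size, 7 with higher and 5 with lower means in the mutants. Their rows belong to a table that was selected on these same samples, so p-values of these genes describe them and are no independent test. None passed the limma test over all spots (adjusted p between 0.589 and 0.811), where 2 of 22499 spots, 0.00889%, passed. At an unadjusted p under 0.05 there were 5 of these 12 genes, beside 7.57% of all tested spots and 63.4% of named table spots.

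Among those with higher means, nhr-213 and nhr-58 came next after nhr-220. nhr-213 had 17.37, 17.45, 17.88 and 16.80 in ahr-mutant replicates 1 to 4, against 16.41, 16.40 and 16.68 in the wild type, a difference of 0.88 ± 0.35 (SE). nhr-58 differed by the same 0.88 (SE 0.31), nhr-131 by 0.78 ± 0.30 and nhr-145 by 0.76 ± 0.32 (SE). Among those with lower means, nhr-79 had 17.93, 19.41, 19.33 and 18.98 in the mutants, against 19.43, 19.87 and 19.98 in the wild type. Its difference was -0.85 ± 0.42 (SE), and its highest mutant array lay 0.02 below the lowest wild-type array. nhr-251 followed at -0.78 ± 0.34, nhr-44 at -0.70 ± 0.36 and nhr-242 at -0.54 ± 0.36 (SE; n = 3 mutants for nhr-242).

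The arrays of the strains did not overlap for 13 of the 16 measured nhr- genes, 4 of 4 described and 9 of 12 others. Of all tested spots 10.3% did so and of the 781 named table spots 79.3%, so the share among nhr- genes was close to that of the table they come from. With the local position adjustment 5 of 16 genes had strains apart, nhr-109, nhr-220, nhr-145 and nhr-79 as before and nhr-254, whose strains overlapped without it, beside 9.6% of all spots and 53.5% of named table spots. nhr-131 went to 0.08 and nhr-19 to 0.04 under this adjustment. All 12 other genes kept their sign, 5 of them at less than 0.5 times their difference (limma adjusted p between 0.648 and 0.990). The median difference of the 16 genes was 0.53, against -0.52 over the 781 named table spots and 0.02 over all tested spots. With 9 of the 16 genes higher and 7 lower, this median falls among the higher ones and does not describe a shift of the whole set. The mean differences were closer together, at 0.16, -0.15 and 0.02. After the adjustment the medians were 0.06, -0.28 and 0.004.

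**Figure D4:**
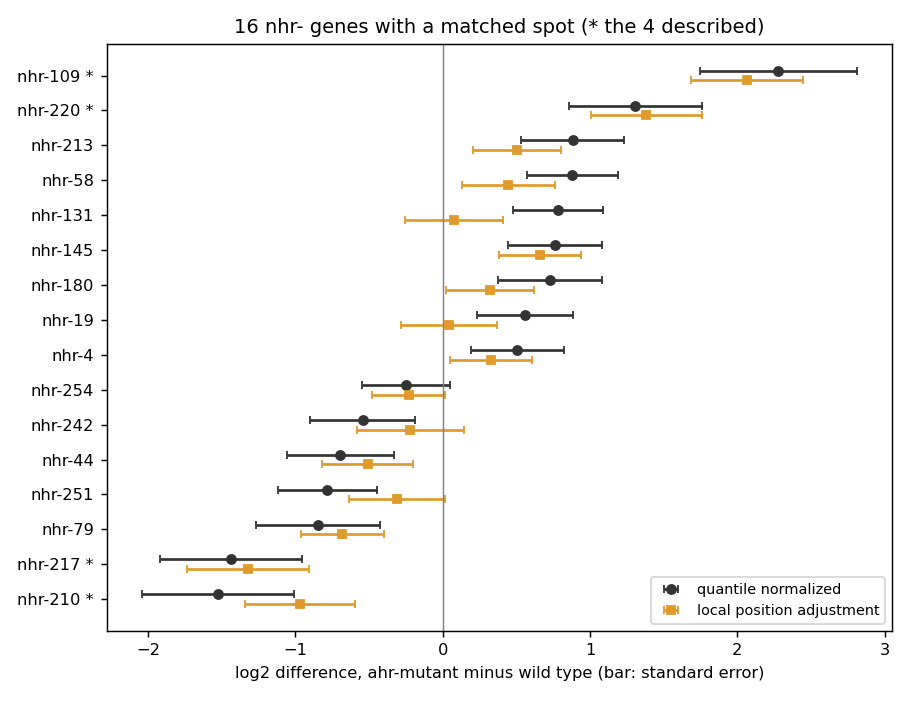
Log2 difference of ahr-mutant minus wild type (horizontal axis) for 16 nhr- genes, sorted by size, as quantile normalized (circles) and with the local position adjustment (squares); bars are standard errors and asterisks mark the 4 described genes. nhr-109 and nhr-220 stay at 2.07 and 1.38 after the adjustment, while nhr-131 and nhr-19 come close to 0.

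Slide rows of the other 12 genes ran from 2 to 12. The sign of the difference was that of the slide row for 10 of them, the exceptions being nhr-145, higher in slide row 6, and nhr-254, lower in slide row 9. Over all 16 genes 13 followed their slide row. The part of slide position in these directions was not tested.

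Genes of this family are concentrated on chromosome V, and so were those of the table. Of the 17 nhr- rows 12 (70.6%) belong to chromosome V, where the annotation places 176 of 283 nhr- genes (62.2%) and where 25.6% of all 961 named rows belong. A run of 6 of the measured genes follows one another on that chromosome in the order nhr-254, nhr-131, nhr-210, nhr-58, nhr-251 and nhr-180, with 32, 9, 7, 22 and 30 annotated genes between neighbours. nhr-210 in this run was 2.87-fold lower, while nhr-131 and nhr-58 to its sides were 1.72-fold and 1.84-fold higher. nhr-254 and nhr-251 had lower means and nhr-180 a higher one (difference 0.73 ± 0.35, SE), so the sign of the difference alternated along the run, although the strains overlapped for nhr-254. On the slide they lie apart, in slide rows 9, 10, 1, 9, 2 and 12. All but nhr-254 had the sign of their slide row. With the local position adjustment the differences were 0.08 for nhr-131, 0.45 for nhr-58, -0.31 for nhr-251 and 0.32 for nhr-180. The strains then overlapped for these genes and for nhr-210, and were apart for nhr-254 (-0.23). The part of slide position in the alternation was not tested. No nhr- gene of the table has another one of the table among the 5 annotated genes on either side. Directly beside nhr-109 lies nhr-273, which has no named spot here.

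The profiles most like each gene were sought by Pearson correlation over the 7 arrays among 724 other named table spots. Since strain and slide position are shared by many spots, the values only describe likeness. For nhr-109 the closest were str-214, a chemosensory receptor gene of the same block (r = 0.98; 5.80-fold higher), Y113G7B.11 (r = 0.98) and Y43F8C.11 (r = 0.97). The closest to nhr-220 was acn-1, a gene related to angiotensin-converting enzyme that is needed for moulting, at r = 0.97 and 3.63-fold higher. taf-6.1, of the TATA-binding protein associated factors, followed at r = 0.94 and R05H10.1 at r = 0.93.

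All 3 spots most like nhr-210 lie in its own block. These were srfb-1 (r = 0.99; 2.69-fold lower), the scramblase gene scrm-4 (r = 0.98) and ugt-8, a UDP-glucuronosyltransferase gene (r = 0.98). Of the 724 spots, 34 had an r above 0.9 with nhr-210, against 39 for nhr-109, 17 for nhr-217 and 5 for nhr-220. The closest to nhr-217 were the cuticlin-like gene cutl-18 (r = 0.97), C09F5.3 (r = 0.97) and F15A4.2 (r = 0.95). After the local position adjustment C09F5.3 fell to an r of 0.57, and the other 11 of these 12 pairs had an r of 0.90 to 0.98. The median r with named spots of the same slide row was 0.76 for nhr-109, 0.84 for nhr-210 and 0.67 for nhr-217, but -0.72 for nhr-220. With named spots of other slide rows it was -0.54 for nhr-109, 0.41 for nhr-210, 0.37 for nhr-217 and -0.40 for nhr-220.

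Other genes of nuclear receptor signalling could not be followed. Of 42 listed genes, namely receptors with other names such as daf-12, coregulators such as mdt-15, lipid metabolism genes such as fat-7, genes of DAF-12 ligand synthesis and the bHLH-PAS genes with ahr-1 itself, 0 had a named spot. Of 31 tissue and stage markers 1 did, the major sperm protein gene msp-78, at 18.30 ± 0.46 in the mutants (SD, n = 4) and 17.23 ± 0.48 in the wild type (SD, n = 3; limma adjusted p = 0.607). The labelled stage could not be checked with these markers. In whole larvae a lower signal from fewer cells that express a gene and from less RNA per cell cannot be told apart.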

How the data were processed

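Each array file holds 1 deposited intensity per spot on a linear scale; neither scanner nor background correction is stated in the labels. Blank, 0 and negative cells were treated as missing. The value table of 1290 rows was deposited by the authors as a ratio, which by its fit to the array files is the signal times a constant per array over a constant per row. Rows were matched to spots within 0.0001 on the log2 scale (1080 matched; largest distance 6.80e-06, next spot 0.063 away or more). Gene names come from the annotation supplied with the table, and all 961 equal the RefSeq symbols of WBcel235.

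Rows of ahr-mutant replicate 1 were re-placed by aligning its signals to the other arrays, keeping stretches of 100 spots or more whose correlation reached 0.7, less 10 spots at each end. This placed 19880 spots (85.6%); of 358 positions known from table values in stretches within these limits, 353 were found again. The other 5 were among 17 in 1 stretch, which was set aside for that reason.

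Log2 intensities were quantile normalized over each whole array before re-placing. Spots with at least 2 values per strain were fitted with limma 3.58.1 in R 4.3.3 (lmFit, eBayes, two-sided, no covariate), with Benjamini-Hochberg adjustment over 22499 spots and a threshold of 0.05. Array number limits the precision. Alignment and fit were tested on simulated data. The rule for named genes took the 4 genes, the other nhr- rows with the 4 smallest and 4 largest differences, listed pathway genes with a spot, and the 3 most alike spots of each gene. The genes and lists were chosen with earlier results of these data known, and nhr-19, nhr-131, nhr-180 and nhr-254 are also named for their values after adjustment or their place on the chromosome. No per-sample column was left unused.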

Additional observations from a re-analysis of the deposited data

Results flagged for a closer look

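The 4 mutant values were examined for a sample far from the others in each of 15 nhr- genes, where about 1 set in 20 is expected by chance. In 1 of them, nhr-180, ahr-mutant replicate 3 stood above the rest, at 16.45 on the log2 scale beside 15.68 to 15.78 in the other mutants. The nhr-180 spot lies in slide row 12.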

How the results depend on the processing

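All 4 genes kept their direction under each of 14 alternatives, between 4.06-fold and 6.66-fold for nhr-109, 2.12-fold and 4.11-fold for nhr-220, 1.63-fold and 3.81-fold for nhr-210, and 2.23-fold and 3.48-fold for nhr-217. The 3.81-fold of nhr-210 came from the authors' deposited table, which holds no value of ahr-mutant replicate 1 for nhr-210 and nhr-217. That table lacks this array in all 752 rows lower in the other mutants, and holds it in all 538 higher rows. The strains overlapped for nhr-220 and nhr-210 with block medians subtracted, for nhr-210 and nhr-217 with the local position adjustment, for nhr-217 with block medians or median scaling, and for nhr-220 and nhr-217 in the deposited table. Leaving out 1 array at a time gave log2 differences of 2.04 to 2.74 for nhr-109, 1.09 to 1.63 for nhr-220, -1.81 to -1.10 for nhr-210 and -1.80 to -1.16 for nhr-217. Block medians moved nhr-220 to 2.04 and nhr-210 to -0.70, more than the SD between replicates; the cause was not tested. The median of the nhr- genes was 0.53 with and without the 4. In both sets it was 0.059 with the local position adjustment, -0.013 with block medians subtracted and 0.67 with normexp. Over all spots the 2 calls became 0 with median scaling, normexp, the dimmest 25% of spots left out or any 1 array left out (range 0 to 0), and 3 with the local adjustment. No paired analysis was possible because the labels number the samples differently in the strains. Spot names rest on the supplied annotation, and signals of related receptors on 1 spot could not be separated.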

Other observations

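The remaining nhr- row of the authors' deposited table, nhr-231, matched no spot. Its ratios were 0.684, 0.880 and 0.947 in ahr-mutant replicates 2 to 4, against 1.00, 2.78 and 2.25 in wild-type replicates 1 to 3, so its strains did not overlap in that table.

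nhr-220 was not the only annotated pseudogene among the named rows. The annotation classes 53 of the 961 named rows as pseudogenes, nhr-220 among them, 907 as protein coding and 1 as a long non-coding RNA.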
